A study of Mus musculus with 20 samples.

Results

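Ccl19, Nupr1, Gjb2, Nbl1, Itih5, Copz2, Dcn, Lum, Slc6a13 and Ogn, 10 of the 19269 genes counted, were followed through all 20 libraries of a mouse preoptic-area study. They form a given list, part of which was chosen by lower values in the supernatants of earlier-series pools than in those of the new pools. The difference between those pools is therefore described without a test. The study used translating ribosome affinity purification: an antibody to GFP pulls down ribosomes whose L10a subunit carries GFP, together with the mRNA on them. Each pool of punches from 3 to 4 female mice gave a pull-down (IP), a depleted supernatant, or both.

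The groups, by the labels, were as follows. Adult mice were 70 to 150 days old and in diestrus, and young mice were 21 days old. An adult GFP-positive pool, GnRH CRE x Floxed L10a-GFP, gave an IP and a supernatant. In this cross Cre driven by the GnRH gene turns on the tag, so tagged ribosomes lie in GnRH neurons and most cells of the punch carry none. The 4 earlier-series pools, young 1 and 2 and adult 3 and 4, had the same genotype and gave supernatants only, each present in the first and in the second sequencing set as technical replicates. The title of the series names prenatal androgenization, but the labels do not say which earlier-series pools were exposed. The 5 negative pools had no tagged ribosomes and gave an IP and a supernatant each. Adult negative pools 1 and 2 were GnRH CRE only, wild-type mice made up young negative pools 1 and 2, and young negative pool 3 was Floxed L10a-GFP only. Age and genotype therefore cannot be told apart among the negative pools. The negative pools and the GFP-positive pool are called the 6 new pools. Libraries held 27.7 to 50.5 M counts, so 3 counts, taken as the limit of detection, correspond to 0.0588 to 0.109 counts per M (CPM). CPM values were scaled with the trimmed mean of M values over all libraries.

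The leptomeninges are thin fibroblast layers on the surface of the brain, and related fibroblasts line its larger blood vessels. The preoptic area reaches the ventral surface, so a punch can carry some of this tissue. These fibroblasts make collagens, the proteoglycans that coat them, and transporters that move solutes between brain and cerebrospinal fluid. Dcn (decorin), Lum (lumican) and Ogn (osteoglycin) are small leucine-rich proteoglycans, secreted proteins that bind collagen fibrils. Slc6a13 encodes the GABA and taurine transporter GAT2, and Gjb2 encodes connexin 26, a gap junction channel of leptomeningeal cells. Nbl1 is a secreted antagonist of bone morphogenetic proteins, Itih5 belongs to the inter-alpha-trypsin inhibitor heavy chains that bind hyaluronan, and Ccl19 is a chemokine ligand of CCR7. Nupr1 is a small stress-induced nuclear protein, and Copz2 is a zeta subunit of the COPI vesicle coat. Both work in many cell types.

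The label of meningeal and fibroblast genes was set against 34 other fibroblast and meningeal genes, among them Col1a1, Col1a2, Igf2, Igfbp2, Slc22a6 and Foxc1. In the table were 33 of them, and none was at 0 in any supernatant of a new pool. Their summed level was 123 to 986 CPM in the second-set supernatants of earlier-series pools and 510 to 4854 CPM in the new supernatants. In adult negative 2, which had the highest sum, Ptgds of this list had 131274 counts and the next gene, Igf2, 5983. The high sums thus rest largely on Ptgds and say little about the other genes. Slc47a1 and Slc22a2 were each at 0 in an earlier-series supernatant. In tissue pieces, fewer cells of a type and less RNA per cell cannot be told apart.

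The promoter windows of a few of the genes are shown because Copz2 and Nupr1 were among the genes that moved together, Ogn had the widest range and Ccl19 went its own way among the new pools. Each line is the 250 bases upstream of the RefSeq start of the gene, 5′ to 3′ on the strand of the gene, in build GRCm38.p6. The RefSeq start can differ from the start in the gene annotation used below. By that annotation the Nupr1 window lies inside the gene (chr7:126623249-126630861). Most of the Ccl19 window also lies inside its gene (chr4:42754525-42756577). Capitals mark the letters TATAAA or GGGCGG on either strand. The Copz2 window lies at chr11:96849626-96849875 on the plus strand, the Nupr1 window at chr7:126625471-126625720 on the minus strand, the Ogn window at chr13:49607765-49608014 on the plus strand and the Ccl19 window at chr4:42756366-42756615 on the minus strand.
Copz2: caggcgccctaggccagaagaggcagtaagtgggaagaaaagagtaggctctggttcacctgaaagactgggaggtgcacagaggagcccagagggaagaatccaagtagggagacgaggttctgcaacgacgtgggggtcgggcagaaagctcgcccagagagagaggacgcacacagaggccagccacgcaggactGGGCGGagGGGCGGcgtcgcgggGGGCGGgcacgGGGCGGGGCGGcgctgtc
Nupr1: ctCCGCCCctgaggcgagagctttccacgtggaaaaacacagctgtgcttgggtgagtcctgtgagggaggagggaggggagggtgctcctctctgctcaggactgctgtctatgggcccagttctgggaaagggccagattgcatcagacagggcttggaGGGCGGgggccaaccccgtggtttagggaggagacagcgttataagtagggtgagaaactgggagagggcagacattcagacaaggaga
Ogn: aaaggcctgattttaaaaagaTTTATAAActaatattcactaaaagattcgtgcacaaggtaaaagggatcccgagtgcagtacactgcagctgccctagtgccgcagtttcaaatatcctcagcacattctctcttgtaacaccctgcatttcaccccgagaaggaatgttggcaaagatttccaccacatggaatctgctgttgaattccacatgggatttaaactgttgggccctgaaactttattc
Ccl19: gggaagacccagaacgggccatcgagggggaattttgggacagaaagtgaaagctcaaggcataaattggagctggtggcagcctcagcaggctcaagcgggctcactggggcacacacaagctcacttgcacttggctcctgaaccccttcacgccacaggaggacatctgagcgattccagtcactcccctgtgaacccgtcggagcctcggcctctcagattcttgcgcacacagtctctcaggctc

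The motif shares refer to the 250 bases before a start in 32851 RefSeq promoter windows. GGGCGG or its reverse complement was in 32.7% and TATAAA or its reverse complement in 12.4%. The capitals in the Ogn window are 2 overlapping matches of TATAAA and its reverse complement. Windows were found for 8 of the 10 genes, 10 windows in all. GGGCGG was in 6 of these, those of Copz2, Gjb2, Itih5, Nbl1, Nupr1 and a window of Slc6a13, and TATAAA in 1, that of Ogn. The AP-1 letters TGACTCA, present in 4.46% of all windows, and the forkhead letters TGTTTAC, present in 3.17%, were in none of the 10. The Ccl19 window held none of the 4 motifs. A match in letters is a description of the window, not a binding site.

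In the annotation of GRCm38, Dcn (chr10:97479609-97518143) and Lum (chr10:97565128-97572703) are neighbours on the plus strand of chromosome 10. Ogn (chr13:49608046-49624501) lies within an intron of Cenpp, which runs on the opposite strand and shares no exon with it. The strand setting of the counting was not given, so reads from unspliced Cenpp RNA could not be told from Ogn. The other genes lie on chromosome 4 (Ccl19, chr4:42754525-42756577, and Nbl1, chr4:139082284-139092993), chromosome 7 (Nupr1, chr7:126623249-126630861), chromosome 14 (Gjb2, chr14:57098600-57104702), chromosome 2 (Itih5, chr2:10153571-10256529), chromosome 11 (Copz2, chr11:96849870-96861203) and chromosome 6 (Slc6a13, chr6:121300227-121337733). For Ccl19, 59.1% of the 50-base stretches of its transcript also occur in Ccl19-ps1, Ccl19-ps3, Gm12407 or Gm2564, so its counts are uncertain. The share was 0.183% for Slc6a13, with its paralog Slc6a12, 0.051% for Itih5 and 0 for the remaining genes.

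Per kilobase of transcript, the mean level over the 10 second-set supernatant pools was highest for Nbl1, at 37.8 CPM per kb, and Nupr1, at 32.1 CPM per kb. Ccl19 followed at 14.9, Copz2 at 10.8, Dcn at 10.2, Gjb2 at 6.92, Slc6a13 at 6.83 and Ogn at 4.29 CPM per kb. Lum, at 1.38 CPM per kb, and Itih5, at 1.04 CPM per kb, were lowest. The ranges over pools overlapped for every pair of neighbours in this order, for example 8.67 to 104 CPM per kb for Nbl1 and 2.63 to 82.1 CPM per kb for Nupr1. Transcript lengths are those of the longest annotated transcript, 7900 bases for Itih5 and 773 bases for Ccl19.

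**Figure D1:**
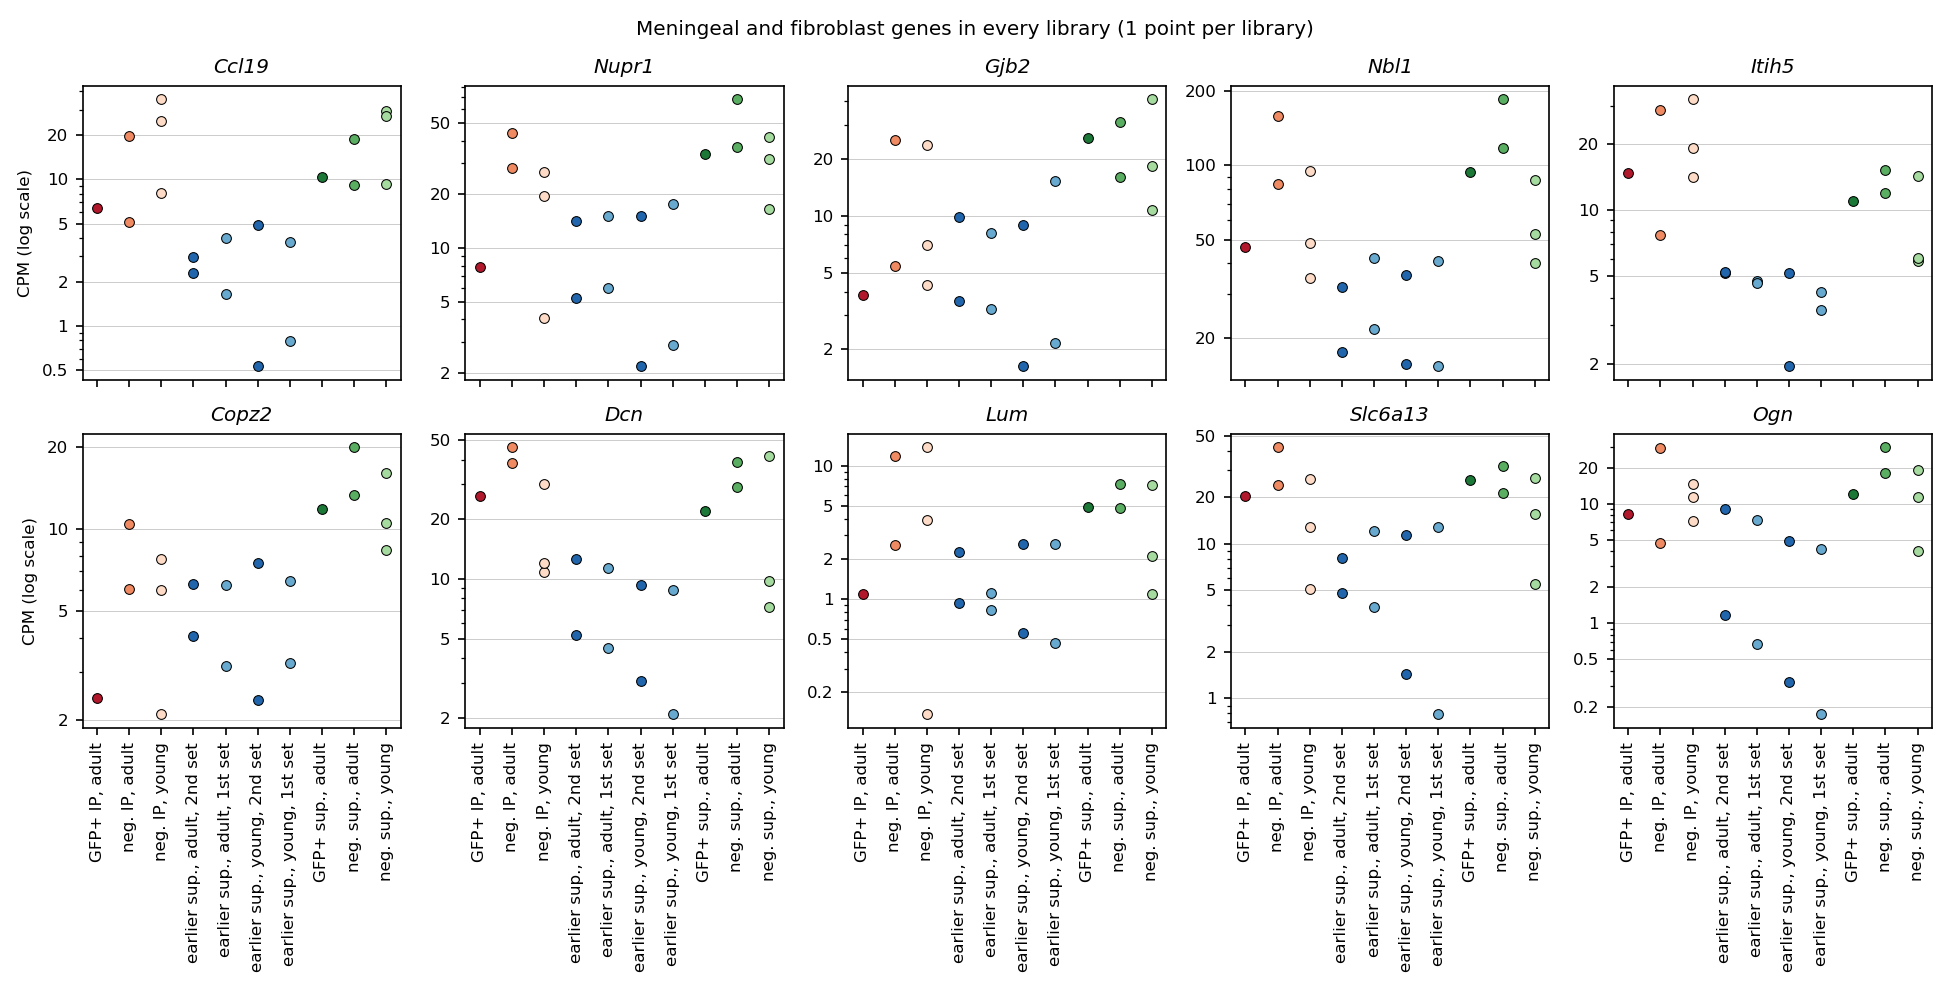
Level of each of the 10 genes in CPM (log axis) in each of the 20 libraries, with 1 point per library and 1 column per group. For Ccl19, Nupr1, Gjb2, Nbl1, Itih5 and Copz2 the second-set supernatants of earlier-series pools (dark blue) lie below all new supernatants (green).

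The 10 genes differed more between pools than most genes did. The highest pool exceeded the lowest by 7.84-fold for Itih5, 8.46-fold for Copz2, 11.9-fold for Nbl1, 12.9-fold for Lum and 13.8-fold for Dcn. The ratio was 22.1-fold for Slc6a13, 25.3-fold for Gjb2, 31.2-fold for Nupr1, 55.2-fold for Ccl19 and 91.4-fold for Ogn. Among 14085 genes with a mean of 1 CPM or more, the median ratio was 1.70-fold, the 90th percentile 3.49-fold and the 99th percentile 18.2-fold. The pools at both ends were largely shared. Earlier-series young pool 2 was lowest for all 10 genes, and earlier-series adult pool 4 was among the lowest 2 for 9 of them. Adult negative pool 2 was highest for 7, young negative pool 3 for Gjb2 and Dcn, and young negative pool 1 for Ccl19. The summed level of the 10 genes was 105, 29.6, 103 and 50.1 CPM in earlier-series young 1, young 2, adult 3 and adult 4. In the new pools it was 251 CPM in the GFP-positive pool, 278 and 447 CPM in adult negative 1 and 2, and 129, 186 and 305 CPM in young negative 1, 2 and 3. These are the values by which part of the genes was chosen, and they are given as a description.

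Among the proteoglycans, Dcn had 9.27, 3.04, 12.6 and 5.22 CPM in earlier-series young 1, young 2, adult 3 and adult 4, against a median of 25.5 CPM, from 7.23 to 41.9 CPM, in the 6 new pools. Lum had 2.57, 0.561, 2.27 and 0.933 CPM in the same earlier-series pools, against a median of 4.88 CPM, from 1.09 to 7.26 CPM, in the new ones. Ogn had 4.84, 0.325, 9.11 and 1.18 CPM in the earlier-series pools, against a median of 15.1 CPM, from 4.04 to 29.7 CPM, in the new ones. For all 3 the groups overlapped: the low new pool, young negative 1, fell among the earlier-series values, with 7.23 CPM of Dcn, 1.09 CPM of Lum and 4.04 CPM of Ogn. Young negative 2 did so for Dcn, at 9.78 CPM, and Lum, at 2.09 CPM. The fitted log2 difference, earlier-series minus new pools with age in the fit, given with its SE as a description, was -1.72 (SE 0.48) for Dcn, -1.49 (SE 0.53) for Lum and -2.06 (SE 0.64) for Ogn.

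The transporter gene Slc6a13 had 11.4, 1.45, 8.05 and 4.82 CPM in earlier-series young 1, young 2, adult 3 and adult 4, against a median of 23.6 CPM, from 5.49 to 31.9 CPM, in the new pools. Young negative 1 was again the low new pool, inside the earlier-series range. The junction gene Gjb2 had 8.94, 1.62, 9.84 and 3.58 CPM in the earlier-series pools, against a median of 21.9 CPM, from 10.7 to 41.0 CPM, in the new ones. Its groups did not overlap, but 9.84 CPM in the highest earlier-series pool and 10.7 CPM in the lowest new one lay close together. The fitted log2 differences were -1.67 (SE 0.49) for Slc6a13 and -2.0 (SE 0.47) for Gjb2.

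Of the secreted factors, Nbl1 had 35.7, 15.6, 32.2 and 17.5 CPM in the earlier-series pools, against a median of 90.5 CPM, from 39.99 to 186 CPM, in the new ones. Itih5 had 5.17, 1.95, 5.16 and 5.22 CPM in the earlier-series pools, against a median of 11.5 CPM, from 5.89 to 15.3 CPM, in the new ones. Ccl19 had 4.87, 0.531, 2.97 and 2.30 CPM in the earlier-series pools, against a median of 14.7 CPM, from 9.18 to 29.3 CPM, in the new ones. All 3 had groups that did not overlap, and for Itih5 the closest pools, 5.22 and 5.89 CPM, nearly met. The log2 differences were -1.81 (SE 0.34) for Nbl1, -1.31 (SE 0.30) for Itih5 and -2.65 (SE 0.49) for Ccl19. Ccl19 fell in an order of its own among the new pools: its top values, 29.3 and 27.2 CPM, were in young negative 1 and 2, where most of the other genes were low. Young negative 3, high for Dcn and Gjb2, had 9.34 CPM of Ccl19.

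The intracellular genes followed the same pools. Nupr1 had 15.1, 2.18, 14.1 and 5.25 CPM in earlier-series young 1, young 2, adult 3 and adult 4, against a median of 35.3 CPM, from 16.6 to 68.1 CPM, in the new ones. Copz2 had 7.49, 2.36, 6.30 and 4.07 CPM in the earlier-series pools, against a median of 12.6 CPM, from 8.36 to 20.0 CPM, in the new ones. Neither gene overlapped between the groups. The log2 difference was -2.03 (SE 0.46) for Nupr1 and -1.40 (SE 0.30) for Copz2.

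The groups did not overlap for 6 genes, Ccl19, Nupr1, Gjb2, Nbl1, Itih5 and Copz2, where 3.36% of genes had every earlier-series pool below every new pool and 8.12% had groups apart in either direction. Nothing is read from this count, because this contrast chose part of the genes. The median log2 difference of the 10 was -1.77, against 0.0025 over all genes. It was -1.91 within adult pools and -1.50 within young pools, and -1.82 without the GFP-positive pool. Earlier series, genotype of most new pools and any prenatal treatment cannot be told apart in these groups, since the new pools held 1 with the genotype of the earlier-series pools. In that GFP-positive supernatant Nbl1 had 93.9 CPM, Nupr1 33.7 CPM, Gjb2 25.6 CPM, Slc6a13 26.0 CPM and Dcn 21.9 CPM, above all 4 earlier-series pools in each case. This is 1 library of the contrast that chose part of the genes, and the share of all genes so placed was not counted. The part of genotype was not tested.

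Marker lists of this and other cell types were set beside the same contrast, in which 5.89% of 16206 genes passed an adjusted p of 0.05 in edgeR as lower in the earlier-series pools and 6.45% as higher. The lists were chosen with earlier results of these data known, and this contrast chose part of the 10 genes. The counts are therefore a description and do not test the label of the 10 genes. Of the other fibroblast and meningeal genes, 14 of 33 passed as lower and none as higher, with a median log2 difference of -1.57. This count rested on single pools. It was 0 without earlier-series young 2, where 0.722% of genes passed as lower, and 1 without earlier-series adult 4. It was 9 without earlier-series adult 3, 24 without earlier-series young 1, 9 and 4 without adult negative 1 and 2, and 8 without young negative 2. Within adult pools it was 14, and within young pools 0, where 2 of 15810 genes passed as lower. The median lay at -1.33 without earlier-series young 2 and at -1.18 within young pools. They included the growth factor gene Igf2 (-1.99), the thrombomodulin gene Thbd (-1.95) and the insulin-like growth factor binding protein gene Igfbp2 (-1.88). Among other small leucine-rich proteoglycans, Bgn (-1.65), Omd (-1.44) and Prelp (-1.07), 3 of 11 tested, passed as lower. Bgn and Prelp also belong to the other fibroblast and meningeal list and are counted there too. Of microglial genes, 4 of 10 passed as lower, among them the complement gene C1qa (-1.03), the receptor gene Trem2 (-0.95) and C1qb (-0.90), and the list summed to 63.0 to 129 CPM in earlier-series pools and 90.1 to 151 CPM in new pools. Of 13 mural genes only Vtn passed (-1.56), and the list summed to 34.7 to 203 CPM in earlier-series pools and 64.6 to 368 CPM in new pools. Of 12 endothelial genes Itm2a passed (-1.11), and Cdh5 was at 0 in an earlier-series pool. The list summed to 41.0 to 62.5 CPM in earlier-series pools and 54.5 to 131 CPM in new pools. Of 12 neuronal genes 4 passed as higher and none as lower, among them the calcitonin receptor gene Calcr (1.05), the estrogen receptor gene Esr1 (0.91) and the GABA synthesis gene Gad1 (0.44). The log2 differences of the 12 ran from -0.17 to 1.05 with a median of 0.29, and their sum was 4474 to 5632 CPM in earlier-series pools and 3847 to 4568 CPM in new pools, ranges that overlapped. Without earlier-series young 2, none of the neuronal genes passed and 1 of 10 microglial genes did. No choroid plexus gene passed in either direction of 9 tested, none of 7 perivascular macrophage genes did, and 1 of 7 ependymal genes did (Pltp, -0.56). Of 3 red blood cell genes tested Alas2 passed (-1.32). Without earlier-series young 2, or without earlier-series adult 4, none of the proteoglycan, mural, endothelial, ependymal or red blood cell genes passed. The part of these other cell types in the differences of the 10 genes was not tested.

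The technical replicates gave a check of the pool differences on repeated libraries. In the second and first sequencing sets, Nupr1 had 2.18 and 2.87 CPM in earlier-series young 2, 5.25 and 6.02 CPM in adult 4, 14.1 and 15.2 CPM in adult 3, and 15.1 and 17.6 CPM in young 1. Ogn had 0.325 and 0.173 CPM in young 2, 1.18 and 0.673 CPM in adult 4, 4.84 and 4.15 CPM in young 1, and 9.11 and 7.33 CPM in adult 3. For both genes the 4 pools stood in the same order in each set. Young 2 and adult 4 were the lower 2 pools in both sets for 9 of 10 genes, all except Itih5, and the full order was the same for 5, Nupr1, Dcn, Lum, Slc6a13 and Ogn. Of 40 pairs of values, 33 lay within 1.5-fold of each other, and the second-over-first ratio ran from 0.458 (Itih5 in young 2) to 2.05 (Lum in adult 3). Itih5 had 1.95 CPM in the second and 4.26 CPM in the first set in young 2, and its 4 pools lay within 3.50 to 4.75 CPM in the first set. The lowest pool for Itih5 in the first set was young 1.

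With the pool in the fit, none of the 10 genes passed in edgeR for second against first set, where 32.4% of 15573 genes did. The second-set libraries had also served to choose part of the genes. Nbl1 came closest, with 35.7, 15.6, 32.2 and 17.5 CPM in the second set against 41.1, 15.3, 42.0 and 21.7 CPM in the first, in young 1, young 2, adult 3 and adult 4. Its log2 difference was -0.23 (SE 0.09, edgeR adjusted p = 0.0521), and it was the only gene with an unadjusted p under 0.05. DESeq2 and limma voom each passed 1 of the 10, Nbl1. The other 9 log2 differences lay between -0.23 (Nupr1) and 0.42 (Ogn). The highest earlier-series pool exceeded the lowest by 28.1-fold in the second and 42.3-fold in the first set for Ogn, the widest of the 10, and by 2.30-fold and 2.75-fold for Nbl1. For Itih5 it did so by 2.68-fold in the second and 1.36-fold in the first set.

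**Figure D2:**
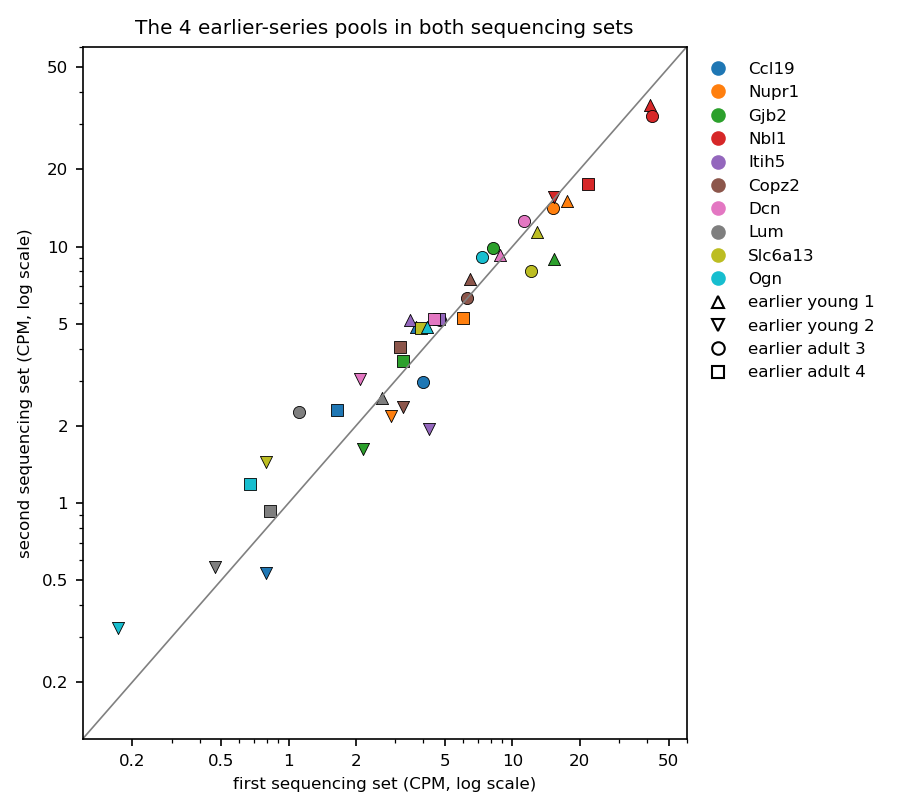
Level in the second sequencing set (vertical, CPM, log axis) against the level in the first set (horizontal, CPM, log axis) for the 10 genes (colours) in the 4 earlier-series pools (marker shapes). Points on the grey line have equal levels, and the ratio of second to first set ran from 0.458 to 2.05.

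Between adult and young supernatants none of the 10 genes passed in edgeR, with pool origin in the fit, where 9.19% of 16206 genes did. None had an unadjusted p under 0.05, and neither DESeq2 nor limma voom passed any. Nbl1 had 32.2 and 17.5 CPM in the adult earlier-series pools and 93.9, 118 and 186 CPM in the adult new pools. Its levels were 35.7 and 15.6 CPM in the young earlier-series pools and 39.99, 52.8 and 87.1 CPM in the young new pools. Among new pools every adult value thus exceeded every young one, while the earlier-series ages overlapped. The share of all genes with ages apart within the new pools was not counted, so nothing is read from this. The log2 difference of Nbl1 was 0.68 (SE 0.32, edgeR adjusted p = 0.209) over all pools, -0.05 (SE 0.41, adjusted p = 0.976) within the earlier-series pools and 1.15 (SE 0.30, adjusted p = 0.0696) within the new pools.

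For age, 9 of the 10 estimates were above 0. Ogn had the largest, 0.85 (SE 0.58, edgeR adjusted p = 0.409), and Itih5 had 0.53 (SE 0.28, adjusted p = 0.272). Ccl19 was below 0 at -0.52 (SE 0.44, adjusted p = 0.517). The genes share pools, so their estimates are not independent of each other. No gene had ages that did not overlap, where 6.35% of genes did. The median SE over the 10 genes was 0.43, larger than the SE of 87.7% of genes, whose median was 0.13. Without earlier-series young 1, Nbl1 passed, at 1.00, and without young negative 3, Itih5 passed, at 0.85. Adult and young mice of the negative pools also differed in genotype, and the part of that was not tested.

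The untagged IP asked what bound without tagged ribosomes, and these libraries took no part in choosing the genes, while their supernatants did. All 10 genes were counted in every IP library. The 5 pools stood in the same order of summed level in both fractions, but the sums rested in large part on Nbl1. It had 84.3 and 159 CPM in the IP of adult negative 1 and 2, against 118 and 186 CPM in their supernatants. The order of the sums therefore does not stand for the other genes. The 10 genes summed to 206 and 417 CPM in the IP of adult negative 1 and 2, against 278 and 447 CPM in their supernatants. They summed to 116, 176 and 271 CPM in the IP of young negative 1, 2 and 3, against 129, 186 and 305 CPM in their supernatants. Young negative 1 was the lowest pool and adult negative 2 the highest. For 8 of the 10 genes the lowest IP and the lowest supernatant came from the same pool, and for 5 the highest did. Nothing is read from these counts, because most of the 10 genes moved together over pools. The share of all genes with such a match was not counted.

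Copz2, the coat subunit, had 6.06 and 10.5 CPM in the IP of adult negative 1 and 2, against 13.3 and 20.0 CPM in their supernatants. In young negative 1, 2 and 3 it had 2.097, 5.99 and 7.75 CPM in the IP, against 8.36, 10.5 and 16.1 CPM in the supernatant. Each IP was lower than its own supernatant, by a ratio of 0.251 to 0.570, although the groups as such overlapped. Gjb2 had 5.45 and 25.03 CPM in the adult IP, against 16.0 and 31.0 CPM in the supernatants of the same pools. It had 4.35, 7.07 and 23.7 CPM in the young IP, against 10.7, 18.2 and 41.0 CPM in the supernatants. Nupr1 had 28.2 and 44.3 CPM in the adult IP, against 37.0 and 68.1 CPM in the supernatants. Its levels were 4.06, 19.6 and 26.8 CPM in the young IP, against 16.6, 31.7 and 41.9 CPM in the supernatants. Copz2, Gjb2 and Nupr1 were the 3 of the 10 genes lower in every negative IP than in the supernatant of the same pool, where 20.6% of 16361 genes were. For none of the 10 did all IP values lie on one side of all supernatant values, where 24.5% of genes had such groups.

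Itih5 went the other way in 4 of 5 pools. In adult negative 1 and 2 it had 7.72 and 28.8 CPM in the IP, against 12.003 and 15.3 CPM in the supernatants. It had 14.2, 19.3 and 32.1 CPM in the young IP, against 5.89, 6.09 and 14.4 CPM in the supernatants, ratios of 2.41, 3.16 and 2.23. Adult negative 1 was the exception. Dcn and Slc6a13 stayed close in both fractions, with IP-over-supernatant ratios of 0.723 to 1.496 for Dcn and 0.819 to 1.32 for Slc6a13. Nbl1 lay between 0.717 and 1.09, and Ccl19 between 0.560 and 1.29. Ogn ran from 0.259 to 3.64 and Lum from 0.126 to 1.91. The Lum minimum came from the IP of young negative 1, where it had 7 counts, 0.137 CPM.

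**Figure D3:**
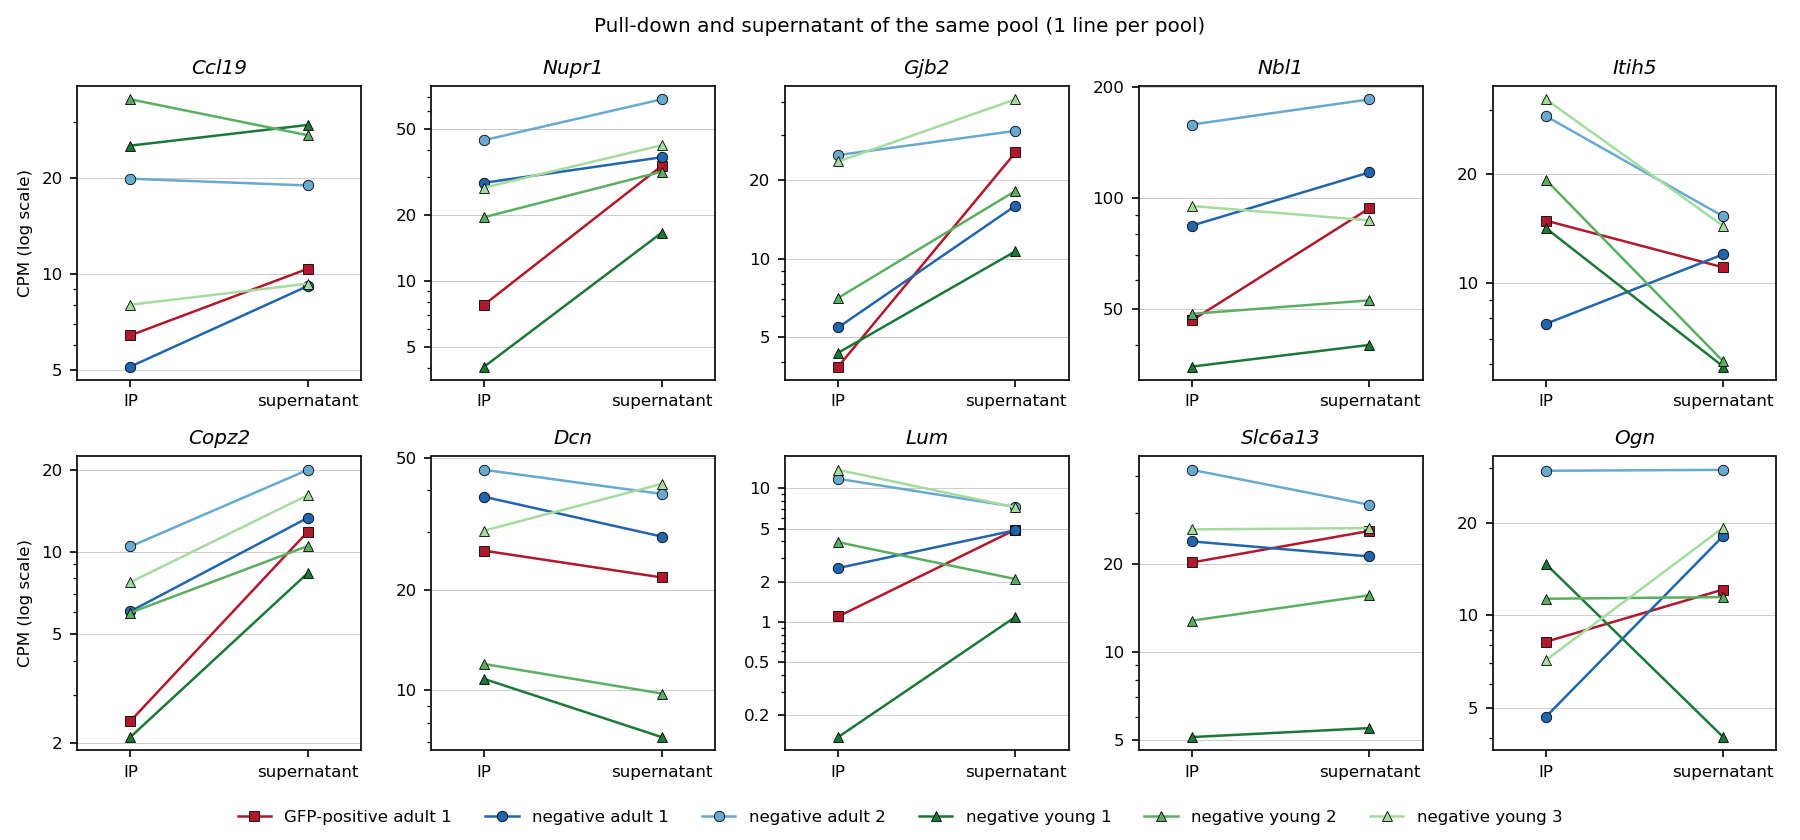
Level in CPM (log axis) in the IP (left) and in the supernatant (right) of the same pool, 1 line per pool, for the 10 genes. Lines of Copz2, Gjb2 and Nupr1 go up to the supernatant in all 6 pools, and lines of Itih5 go down in 5 of 6.

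In edgeR, with the 4 groups of age and fraction and no pool term, none of the 10 passed for IP against supernatant, where 32.1% of 16361 genes did. At an unadjusted p under 0.05 there was 1, Copz2, and DESeq2 and limma voom each passed 1, Copz2. Its log2 difference was -1.11 (SE 0.40, edgeR adjusted p = 0.0559). The estimates were -0.85 (SE 0.59, adjusted p = 0.321) for Gjb2, -0.72 (SE 0.46, adjusted p = 0.277) for Nupr1 and 0.83 (SE 0.42, adjusted p = 0.167) for Itih5. With the pool as a block, Copz2, Gjb2 and Nupr1 passed as lower in the IP, 3 of 10, where 15.3% of genes did. The log2 difference was then -1.19 (SE 0.31, edgeR adjusted p = 0.0199) for Copz2, -1.07 (SE 0.24, adjusted p = 0.0115) for Gjb2 and -0.83 (SE 0.23, adjusted p = 0.0266) for Nupr1. The median over all genes in the blocked fit was -0.17. Itih5 had 0.72 (SE 0.28, edgeR adjusted p = 0.0907). With the block DESeq2 passed the same 3 genes and limma voom those and Itih5. The median SE of the 10 genes was 0.49 without the block and 0.24 with it, above 69.3% and 50.4% of all genes. The blocked calls depended on the adult pools, while the log2 differences kept their sign. Without adult negative 1 Itih5 alone passed, with adjusted p of 0.0844 to 0.112 for Copz2, Gjb2 and Nupr1 and log2 differences of -1.15, -0.77 and -0.90, and 9.69% of all genes passed as lower. Without adult negative 2 Gjb2 alone passed, with log2 differences of -1.23 for Copz2, -1.38 for Gjb2 and -0.77 for Nupr1, and 11.1% of all genes passed as lower.

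Split by age, none passed in either age without the block, where 10.9% of genes passed in adult and 27.1% in young pools. The adult share was 5.24% without the IP of adult negative 1, and 1.68% and 2.86% without the supernatant of adult negative 1 and 2. Unadjusted p under 0.05 was found for 0 genes in adult pools and for 2 in young pools, Copz2 and Itih5, and DESeq2 and limma voom passed none. With the block none passed in adult pools, where Gjb2 and Nbl1 had an unadjusted p under 0.05, and 4 passed in young pools, where 26.1% of genes did. They were Copz2 (log2 difference -1.32, SE 0.39, edgeR adjusted p = 0.0395), Gjb2 (-1.19, SE 0.31, adjusted p = 0.0222), Nupr1 (-1.15, SE 0.30, adjusted p = 0.0233) and Itih5 (1.32, SE 0.35, adjusted p = 0.0267). The difference between ages was itself tested: none of the 10 passed for age by fraction in edgeR, nor did any of 16361 genes. At an unadjusted p under 0.05 there were 0 of the 10 and 1068 of all genes, and DESeq2 passed 118 genes, none of the 10. For Itih5 the adult minus young estimate with the block was -1.19 (SE 0.56, adjusted p = 0.802).

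**Figure D4:**
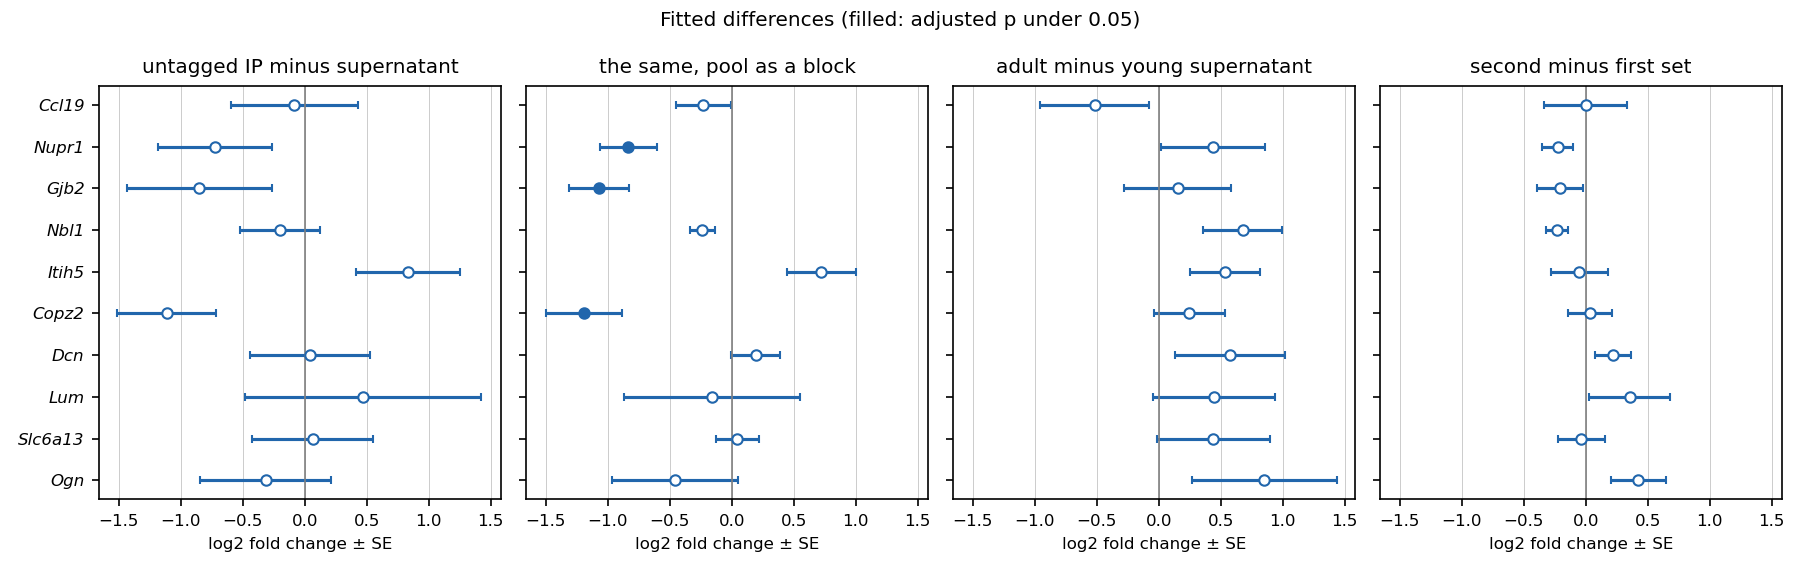
Fitted log2 fold change with its SE (bars) for the 10 genes in 4 panels, which are IP minus supernatant of negative pools, the same with the pool as a block, adult minus young supernatant, and second minus first sequencing set. Filled points passed an edgeR adjusted p of 0.05, which are Copz2, Gjb2 and Nupr1 in the blocked panel alone.

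Of the other fibroblast and meningeal genes, 1 of 33 passed as higher in the untagged IP than in the supernatant and none as lower. It was Pdgfra (log2 difference 0.80, SE 0.27, edgeR adjusted p = 0.0440). Its Pearson correlation with the mean profile of the 10 genes, over the 10 second-set supernatants, was 0.097. The log2 differences of the 33 genes went both ways, from -2.24 to 2.32 with a median of -0.07. With the block 2 of them passed as higher and 4 as lower. Their sum was 379 to 3994 CPM in the IP and 510 to 4854 CPM in the supernatant of the negative pools. Adult negative 2 had the highest sum in both fractions, with 118461 counts of Ptgds in the IP and 131274 in the supernatant. The choroid plexus list summed to 153 to 223 CPM in the IP and 89.4 to 143 CPM in the supernatant. Of its 8 genes tested 2 passed as higher, Prlr (log2 difference 1.33) and Enpp2 (0.67). In the negative IP libraries Prlr had 1431 to 3377 counts and Enpp2 2396 to 5638. Ttr of the same list had 0 to 204 counts there, and Aqp1 had 0 in each. The sum thus does not stand for the list as a whole. The part of these lists in the IP levels was not tested.

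The GFP-positive IP checks the pull-down. Gnrh1, the gene of the tagged neurons, had 1457 CPM in that IP, against 33.5 and 16.2 CPM in the IP of adult negative 1 and 2. It was the 1 gene of 16586 that passed in edgeR, 0.00603%, and none of the 10 did. This IP has no replicate, and its spread was taken from the negative IP libraries. None of the 10 had an unadjusted p under 0.05, and DESeq2 and limma voom passed none. Nbl1 had 46.7 CPM in the GFP-positive IP, against 84.3 and 159 CPM in the adult negative IP, and its own supernatant had 93.9 CPM. Nupr1 had 7.80 CPM in the GFP-positive IP, against 28.2 and 44.3 CPM in the negative ones and 33.7 CPM in its own supernatant. Gjb2 had 3.85 CPM, against 5.45 and 25.03 CPM in the negative IP and 25.6 CPM in its own supernatant. Of the 10 genes, 7 were below both adult negative IP, where 32.8% of 16586 genes were. In this pool 8 were below their own supernatant, where 48.4% of genes were, with Itih5 and Dcn above it at ratios of 1.35 and 1.203.

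The estimates against the adult negative IP were all below 0, with a median of -1.18 on the log2 scale and -0.02 over all genes. They ran from -0.26 for Itih5 (SE 0.85, edgeR adjusted p = 1) to -2.66 for Lum (SE 2.36, adjusted p = 0.957). Nbl1 had -1.34 (SE 0.65, adjusted p = 0.938) and Nupr1 -2.18 (SE 1.06, adjusted p = 0.938). Adult negative 2 was the highest IP for 7 of the 10, and without it 3 estimates changed sign, to 0.37 for Ccl19, 0.99 for Itih5 and 0.85 for Ogn.

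How alike the genes were over pools was measured on log2 CPM in the 10 second-set supernatants, by correlation with the mean of the standardised profiles. Pearson's r ran from 0.93 (Lum) to 0.99 (Copz2) for 9 of the genes and was 0.73 for Ccl19. The mean was that of the other 9 genes, and the points share their libraries and both pool origins, so no p is given. Over the 6 new pools alone, Ccl19 had -0.64 and the other 9 had 0.82 (Gjb2) to 0.98 (Copz2).

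Among 12913 other genes with a mean log2 CPM of at least 1, whose median r was -0.09, the 10 most alike included Igfbp2, Slc22a8, Lgals1, Vtn, Ifitm3, Vamp8, Slc13a4, Fcgrt and Ddr2, with r of 0.99 to 0.98. Slc22a8 encodes an organic anion transporter, Slc13a4 a sulfate transporter and Ddr2 a collagen receptor. The order of these names is not firm: 2 of the 10 remained with Spearman's rho and 2 in the 6 new pools alone. By list, the median r was 0.96 for the 10 genes, 0.96 for 3 other small leucine-rich proteoglycans, 0.90 for 29 other fibroblast and meningeal genes, 0.72 for 11 mural genes and 0.63 for 10 microglial genes. It was 0.62 for 2 perivascular macrophage genes, 0.59 for 6 endothelial genes, 0.20 for 1 red blood cell gene and 0.03 for 7 choroid plexus genes. Below 0 were 7 ependymal genes, at -0.26, and 12 neuronal genes, at -0.60. These medians include the pool contrast by which part of the genes was chosen. The 3 proteoglycan genes, Bgn, Fmod and Prelp, also belong to the other fibroblast and meningeal list, so these 2 lists are not separate. Omd joins them among the 4 measured over the new pools. Over the 6 new pools alone the median was 0.92 for the 10 genes, 0.91 for 4 other small leucine-rich proteoglycans, 0.92 for 31 other fibroblast and meningeal genes, 0.75 for 8 endothelial genes and 0.61 for 10 microglial genes. It was 0.56 for the perivascular macrophage genes, 0.52 for the choroid plexus genes, 0.47 for the mural genes, -0.38 for the ependymal genes, -0.40 for the neuronal genes and -0.67 for the red blood cell gene. The choroid plexus, mural and red blood cell lists thus changed place with the pools used.

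**Figure D5:**
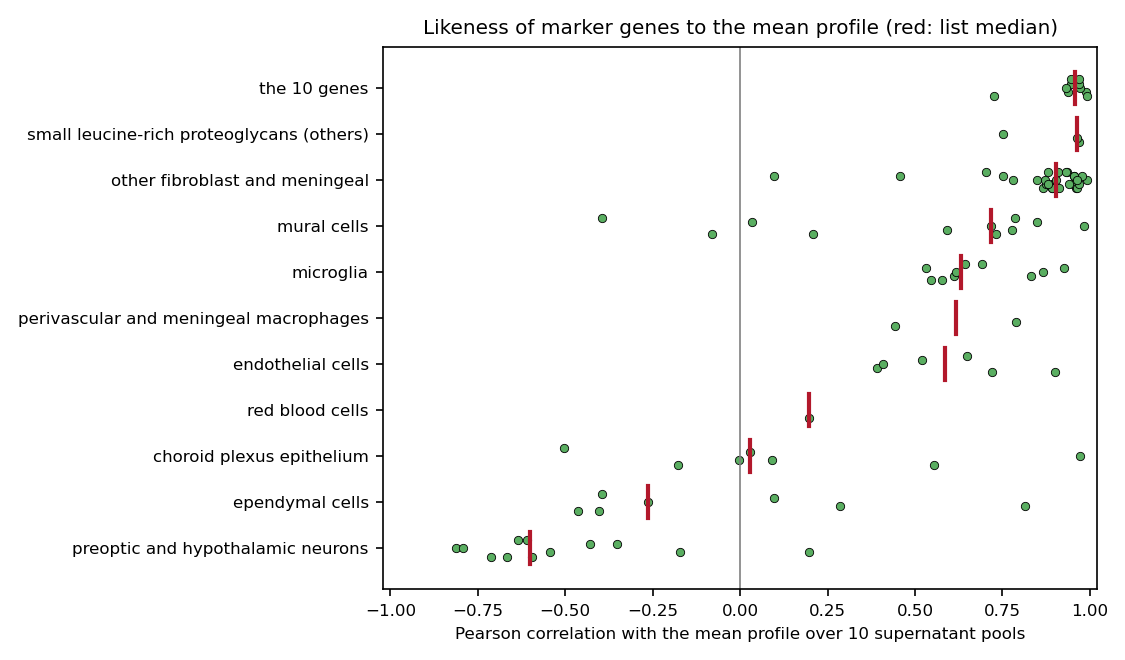
Pearson correlation of marker genes with the mean profile of the 10 genes over the 10 second-set supernatant pools (horizontal), 1 point per gene and 1 row per marker list, with the list median in red. The median was 0.90 for the other fibroblast and meningeal genes and -0.60 for the neuronal genes.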

How the data were processed

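Counts per gene symbol in 20 libraries were used as deposited. The submitters' processing notes name build mm10 and, in no stated order, HTSeq 0.6.1, DESeq2 1.14.1, TopHat2 2.0.13, FastQC 0.11.3, Cuffdiff 2.1.1 with Cufflinks, and Bowtie2 2.2.1. What each did, which annotation was counted and whether strand was used is not given in the sources used here. RNA, per the labels' protocols, was amplified from very small inputs with a SMARTer v4 polyA kit. Duplicate reads could not be told from separate molecules, so the 3-count limits cover counting error only.

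The counts were fitted with edgeR 4.0.16 (quasi-likelihood test, R 4.3.3) with TMM scaling and the filterByExpr filter at a minimum count of 10. Benjamini-Hochberg adjustment ran over all genes tested, at 0.05. The negative pools gave 1 fit (6 residual degrees of freedom), the 10 second-set supernatant pools another with age and pool origin (7), the earlier-series pools 1 with the pool as a term (3), and the IP libraries the last. Alternatives were DESeq2 1.42.0, limma voom 3.58.1, DESeq2 size factors, no filter, a filter at 1 CPM, each library left out and the pool as a block (3 residual degrees of freedom). The marker lists were recounted with each library left out, a step chosen after seeing the data. The IP fit without a block, the age term and the set fit were also run on simulated counts. These counts held no pool effects. Their spread was below that of the 10 genes, whose SD within age and pool origin was 0.60 to 1.60 log2 CPM. The simulation therefore does not cover the error for these genes.

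Groups and replicate numbers followed the sample titles. The series text in 1 place names the supernatant titled adult negative 1 as GFP-positive; with that reading no call for the 10 genes changed. The IP and supernatant with the same number come from the same pool by their titles, and their deviations from the group means correlated at 0.169, 0.113 and 0.284 in young and 0.102 in adult pools, equal for both adult pools by construction. Nothing says how pools were separated beyond their mice, so p-values of fits without a pool term measure the spread between these pools. With a pool term, p-values measure how the difference between libraries of the same pool varied from pool to pool.

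The 10 genes and the marker lists were chosen with earlier results of these data known. Named genes were all 10, up to 3 genes per marker list and comparison with the largest called change, and the 10 other genes most like the mean profile. In the text, passing means an adjusted p under 0.05. Lengths and coordinates came from the GENCODE annotation of GRCm38, the assembly also called mm10, which matched 89.7% of the symbols. Promoter sequences came from RefSeq on GRCm38.p6. One gene among those most alike is not reported here.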

Additional observations from a re-analysis of the deposited data

How the results depend on the processing

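Of the 10 genes, the number passing for untagged IP against supernatant was 0 without the block, 1 with DESeq2, 1 with limma voom, 3 with the replicate block and 0 to 1 with a library left out. In young pools it was 4 with the replicate block. The blocked count itself was 1 to 3 with a pool left out. For age it was 0 to 1 with a library left out. For second against first set it was 1 with DESeq2, 1 with DESeq2 size factors, 1 with limma voom and 0 to 1 with a pool left out. In these and the other comparisons that were tested on the 10 genes, no other setting moved their count by over 1.5 times, and without the pool term the second against first set count stayed 0.

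Small estimates changed sign. For IP against supernatant the Lum value became -0.29 with limma voom and -0.16 with the replicate block. With a library left out it ran from -0.29 to 1.03 for Lum, -0.72 to 0.25 for Ccl19, -0.27 to 0.65 for Dcn, -0.29 to 0.36 for Slc6a13 and -1.24 to 0.077 for Ogn. For age, Gjb2 was -0.21 with first-set libraries and -0.12 to 0.57 with a library left out, and in the earlier-series pools alone Nbl1 was -0.047 and Slc6a13 -0.0038. For second against first set, Ccl19 was -0.021 with DESeq2, -0.011 with DESeq2 size factors, -0.0043 with no filter and -0.16 to 0.15 with a pool left out. Itih5 was 0.018 with limma voom and -0.26 to 0.27 with a pool left out, Gjb2 -0.40 to 0.028, Copz2 -0.065 to 0.18 and Slc6a13 -0.20 to 0.20. For the GFP-positive IP, Itih5 was 0.0031 with limma voom, and with a library left out Ccl19 was -1.61 to 0.37, Itih5 -0.94 to 0.99 and Ogn -1.82 to 0.85. The cause of these changes was not tested. The median difference of the 10 genes between earlier-series and new pools lay between -2.35 and -1.50 in all alternatives run. Depth limits Lum and Ogn most, with as few as 7 counts each in a library.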

Other observations

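Between adult and young supernatants, where none of the 10 genes passed, genes of other cell types did, with 5.09% of all genes lower and 4.1% higher in adult pools. Of 3 red blood cell genes tested, 2 passed in edgeR as lower in adult pools, the haemoglobin gene Hba-a2 (log2 difference -2.19, SE 0.65, edgeR adjusted p = 0.0445) and the haem synthesis gene Alas2 (-1.62, SE 0.28, adjusted p = 0.0035). Hba-a2 has near-identical copies, so its counts are uncertain. They were 4 to 14 in the young and 0 to 5 in the adult second-set supernatants, near the limit of 3 counts. Of 10 microglial genes, 4 passed as higher in adult pools, among them Trem2 (0.91, SE 0.25, adjusted p = 0.0360), C1qa (0.86, SE 0.21, adjusted p = 0.0239) and C1qb (0.73, SE 0.15, adjusted p = 0.0103). With a library left out, the microglial count ran from 1 to 5 and the red blood cell count from 1 to 3. The microglial count was 1 without earlier-series adult 3, without earlier-series young 1 or without young negative 1, 2 without the GFP-positive pool, adult negative 1 or adult negative 2, and 0 within the new pools and within the earlier-series pools. None of 33 other fibroblast and meningeal genes passed for age in edgeR, with a median of 0.36, while DESeq2 passed 2 and limma voom 4 as higher in adult pools. With a library left out the edgeR count was 0 to 4.

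Dixon's test on log2 CPM was run in 40 groups of 5 libraries. There was 1 group for each of the 10 genes in the negative IP, negative supernatant, adult supernatant and young supernatant libraries. No single library stood apart from the other 4, where the test flags about 1 in 20 groups by chance. The groups share libraries, most of the genes moved together, and the adult and young groups mix earlier-series and new pools. The result therefore does not show that no library was unusual.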
